A study of Mus musculus with 2 samples.

Results

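The Krüppel-like factor genes Klf2, Klf4 and Klf5 were compared between mouse ES cells and EB cells. The probes were chosen by the NCBI Gene number in their identifiers (16598 for Klf2, 16600 for Klf4 and 12224 for Klf5). They comprised 5 of the 9796 named probes, 1 for Klf2, 3 for Klf4 and 1 for Klf5, and 3 of the 8102 named genes. The ES sample was labelled day 0 and the EB sample day 4. Neither abbreviation is spelled out; the usual readings are embryonic stem cells and embryoid bodies, which are clumps of such cells left to differentiate. The labels give no strain, cell line or culture medium, and each group was 1 array, so culture, array and group cannot be told apart.

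Krüppel-like factors bind GC-rich DNA and CACCC elements through zinc fingers at the end of the protein. In mouse ES cells Klf2, Klf4 and Klf5 bind many of the same sites and can partly replace one another in holding the naive state, the ground state of pluripotency. Klf4 is a target of LIF signalling through Stat3, Klf2 is held up when ERK signalling is blocked, and Klf4 is one of the factors used to reprogram somatic cells. Outside ES cells Klf2 is known from vessel walls and lymphocytes, Klf4 from epithelia and Klf5 from gut epithelium and smooth muscle.

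The promoters of Klf2 and Klf4 are shown because the family to which they belong recognises GC-rich elements. The promoter of Klf5 is not analysed here. Each sequence holds the 250 bases before the RefSeq start of the gene in GRCm38.p6, 5′ to 3′ on the gene's strand. The Klf2 window lies at chr8:72318812-72319061 on the plus strand and the Klf4 window at chr4:55532476-55532725 on the minus strand. Capitals mark the GC box, GGGCGG, and the CACCC box, CACCC, found on either strand.

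Klf2: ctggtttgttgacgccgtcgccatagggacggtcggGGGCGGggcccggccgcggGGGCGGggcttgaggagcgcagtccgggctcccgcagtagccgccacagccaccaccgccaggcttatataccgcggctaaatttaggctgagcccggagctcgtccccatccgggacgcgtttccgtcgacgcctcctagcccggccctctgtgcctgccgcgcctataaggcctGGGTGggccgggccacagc

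Klf4: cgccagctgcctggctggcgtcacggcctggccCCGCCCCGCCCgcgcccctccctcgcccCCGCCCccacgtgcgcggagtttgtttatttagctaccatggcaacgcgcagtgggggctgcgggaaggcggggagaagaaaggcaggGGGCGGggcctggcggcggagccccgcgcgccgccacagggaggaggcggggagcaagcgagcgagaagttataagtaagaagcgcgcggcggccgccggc

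The Klf2 window held 2 GC boxes and 1 CACCC box, and the Klf4 window 4 GC boxes, 2 of which share a base, and 0 CACCC boxes. Of all 32851 promoter windows of this length 32.7% held a GC box and 52.0% a CACCC box. The GC content was 71.2% for Klf2 and 74.0% for Klf4, against a median of 52.4%. A STAT core, TTCNNNGAA, was in neither window and in 7.02% of all windows. The E-box CACGTG was found 1 time in Klf4, 182 to 177 bases before the start and next to a GC box, and in 6.02% of all windows. A TATA-like box, TATAA, was found 2 times in each window, on the gene's strand 29 to 25 bases before the start in Klf2 and 31 to 27 bases before it in Klf4. The other match lay on the opposite strand, 131 to 127 bases before the start in Klf2 and 32 to 28 in Klf4, where it overlaps the first, and 22.8% of all windows held the box on either strand. These matches describe letters in a window. The arrays measured no binding.

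A median of 38 beads in ES and 37 in EB lay behind each of the 46643 signals, and the median bead-level error above the signal floor was 4.49% and 4.39%. The floor, 230.0 on the normalized scale, is the signal at which the EB detection score passed 0.99. It was exceeded by 28.4% of the probes of either array. There were no replicates, so a difference describes 2 arrays and the bead-level standard error (SE) covers only the measurement within an array. The precision is limited by the number of arrays.

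Klf2, Klf4 and Klf5 were all lower in EB than in ES. Klf2 had the largest measured difference, 36.2-fold, Klf5 was 8.0-fold lower, and Klf4 was at least 5.87-fold lower by its brightest probe. Each of the 5 probes was above the floor in ES. In EB the Klf5 probe lay clearly above the floor and the Klf2 probe just above it, while all 3 Klf4 probes lay under it.

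The Klf2 probe (scl016598.3_26-S) had a deposited signal of 8840 in ES and 245.2 in EB, each from 44 beads. After quantile normalization the signals were 9100 and 252. The ES signal was thus 39.6 times the floor and the EB signal 1.09 times. The log2 difference, EB minus ES, was -5.18 with a bead-level SE of 0.09. The detection score in EB was 0.996, just past the limit. Because the EB signal lay so close to background, the size of the difference depended on how background was treated: the fold was 47.5 after normexp background correction and 129 in the authors' series value table, where the EB intensity was 68.9.

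The Klf5 probe (scl0012224.2_233-S) had a deposited signal of 3730 in ES, from 39 beads, and 470.0 in EB, from 38 beads. Normalized, these were 3792 and 474. The EB signal was 2.06 times the floor, so Klf5 was the one member still well detected at day 4. The log2 difference was -3.00 with a bead-level SE of 0.09. The fold was 9.03 with normexp and 12.4 in the series value table.

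Klf4 was represented by 3 probes, called probes 1, 2 and 3 here in the order of their ES signals. Probe 1 (scl0016600.2_249-S) had a normalized signal of 1349 in ES against 226 in EB, a log2 difference of -2.58 (bead-level SE 0.13). Probe 2 (scl0016600.2_155-S) had 1122 and 199, a difference of -2.50 (SE 0.14). Probe 3 (scl016600.7_29-S) had 513 and 161, a difference of -1.67 (SE 0.19). All 3 probes were thus lower in EB, and with an EB signal under the floor each ratio is a lower bound: at least 5.87-fold for probe 1, at least 4.88-fold for probe 2 and at least 2.23-fold for probe 3.

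Probes 1 and 2 of Klf4 differed by 0.08 in their log2 differences, less than the bead-level SE of either. Probe 3 gave a smaller difference, and the 3 probes spanned 0.91. In 391 genes exactly 2 probes passed the floor in ES, EB or both, and their log2 differences differed from each other with an SD of 0.40. Probe 3 also had the fewest beads, 22 in ES and 19 in EB, and bead-level errors of 7.90% and 10.4%. In the series value table, which stretches the low end, probes 1, 2 and 3 gave -4.67, -5.13 and -4.60 and spanned 0.53.

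**Figure D1:**
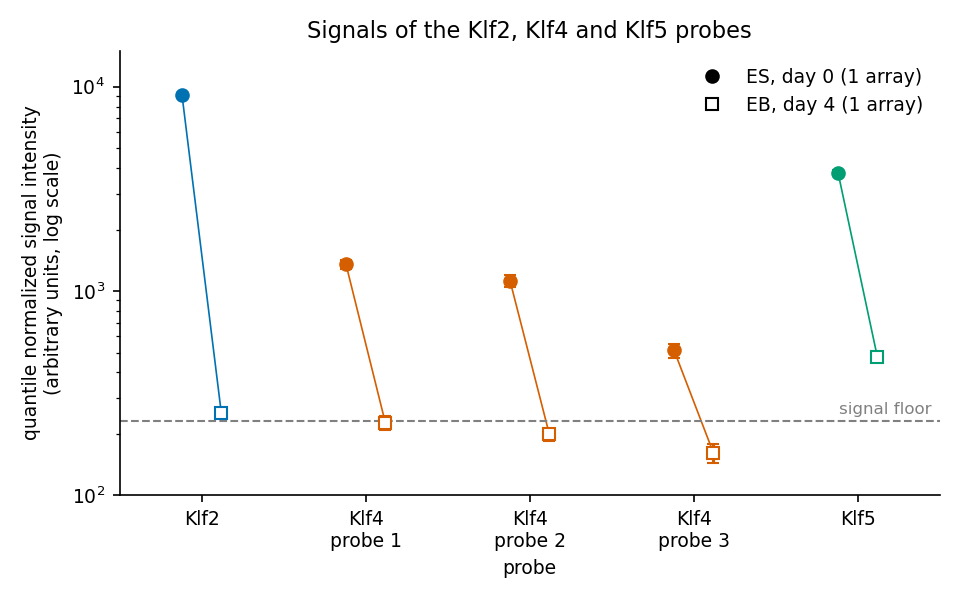
Quantile normalized signal intensity (log axis, arbitrary units) of the 5 probes of Klf2, Klf4 and Klf5 in ES at day 0 (filled circles) and EB at day 4 (open squares), 1 array each; bars are bead-level standard errors and the dashed line is the signal floor of 230.0. Every line runs down from ES to EB; Klf2 ends at 252, Klf5 at 474 and the Klf4 probes under the floor. Levels of different probes are not comparable with each other.

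The 3 genes differed in the size of their differences between the arrays. The log2 difference of Klf2 was larger than that of Klf5 by 2.18 (bead-level SE 0.12). That order held under all 5 other scalings and backgrounds, by 2.18 to 3.39. Both genes had 1 probe each, so the spread between probes of the same gene is not known for them. The SD of 0.40 given above was not limited to genes with large differences. The EB signal of Klf4 probe 1 was under the floor and its difference is a lower bound. With the Klf2 and Klf5 differences taken as measured, their leads over it were at most 2.62 and 0.45 in the main values. By measured signal these leads were 2.60 and 0.42, the second about as much as 2 probes of 1 gene differ. With the series value table that order turned, and the Klf4 difference (-4.67) was the larger (-3.63 for Klf5). Klf4 and Klf5 therefore had no settled order.

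**Figure D2:**
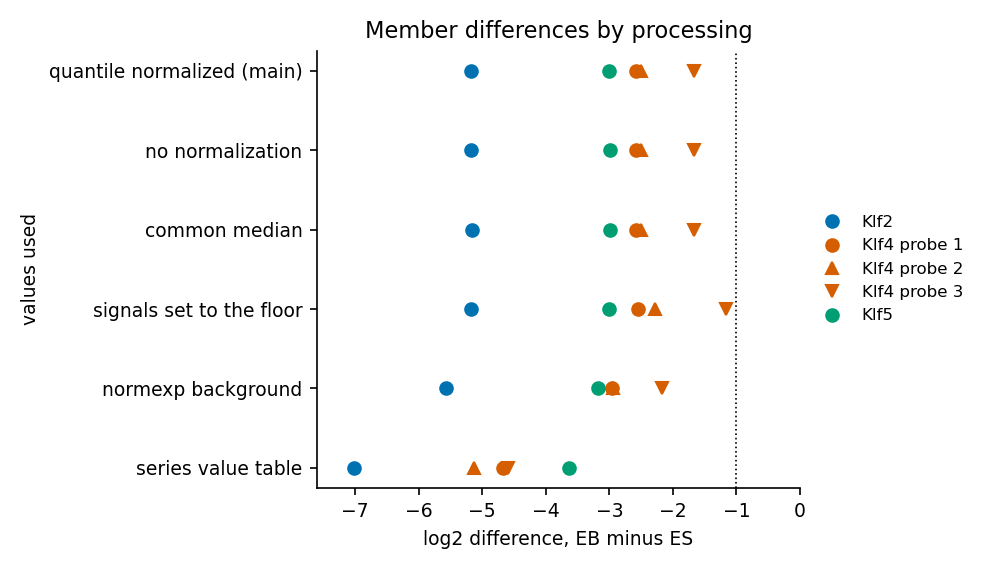
Log2 difference, EB minus ES, of each member probe (horizontal axis) under the main values and 5 alternatives (vertical axis); the dotted line marks 2-fold lower. All points lie past the 2-fold line; Klf2 stays lowest, from -5.17 to -7.02, while the Klf4 probes move from right of Klf5 to left of it in the series value table.

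Of the 3867 named genes whose signal passed the floor in ES, EB or both, 5.35% were lower in EB by at least 2-fold, 3.72% were higher by as much, and 1.03% were lower by at least 4-fold. All 3 Klf genes were lower by at least 4-fold by the probe that stands for the gene. In the series value table lower genes made up 47.0% of the genes past 2-fold (468 lower and 527 higher), against 59.0% in the main values (207 and 144).

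Ordered by log2 difference, Klf2 had the lowest value of the 3867 genes, Klf5 was at place 11 and Klf4, by measured signal, at place 18. The gene next to Klf2 was Spp1, the secreted phosphoprotein osteopontin, at -4.72. The EB signals of Spp1 and Klf4 were under the floor, so their true places are not fixed, and Klf2 took the third place in the series value table. Klf5 stood between Jam2, a junctional adhesion molecule (-3.07, EB signal under the floor), and Cldn4, a tight junction claudin (-2.91). Klf4 stood between Ckb, the brain creatine kinase (-2.58), and Rfx2, a winged helix factor (-2.55). The gaps of Klf4 to both neighbours and of Klf5 to both neighbours were smaller than their bead-level SEs, and that of Klf2 to Spp1 was 0.46 (SE 0.12). In the series value table Klf4 was at place 24 and Klf5 at place 58. Of 14631 probes above the floor, named or not, 1 had a lower difference than Klf2, and its gene is not named here.

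**Figure D3:**
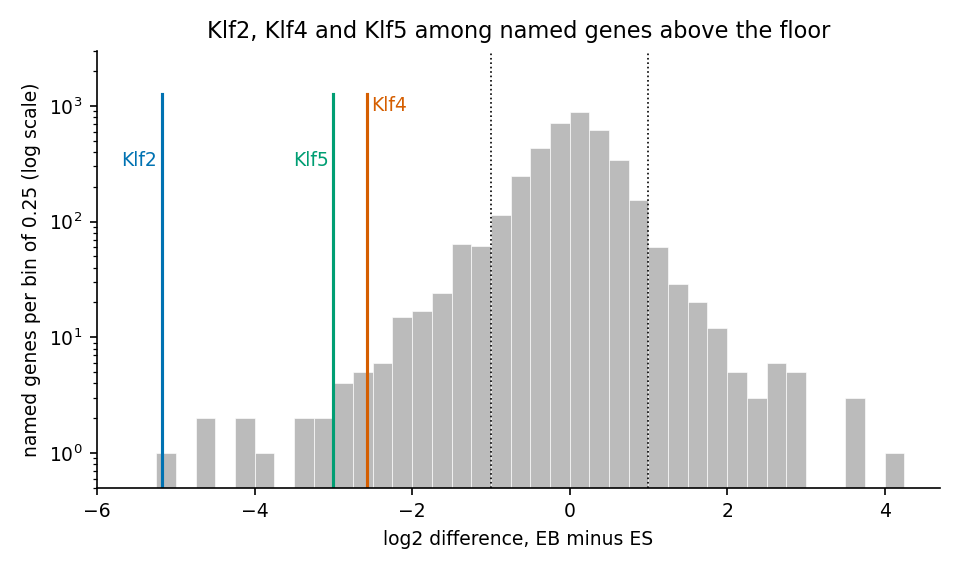
Number of named genes (log axis) per bin of 0.25 in the log2 difference, EB minus ES, over 3867 genes above the floor; dotted lines mark 2-fold in either direction and coloured lines the 3 Klf genes, Klf4 by its brightest probe. Klf2 lies in the lowest filled bin at -5.18, with Klf5 at -3.00 and Klf4 at -2.58 further up the same tail.

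The rest of the family gives the context. The Klf and Sp genes share the same type of zinc fingers, and 26 of them are in the RefSeq table, of which 14 were named on the array by 20 probes. Of these 14 genes 8 passed the floor in ES, EB or both. The 3 lower by at least 2-fold were Klf2, Klf4 and Klf5, and 0 were higher, where 5.35% of all named genes above the floor were lower and 3.72% higher. Klf4 passed the floor only in ES, and such a gene is lower in EB by construction. Detection in both arrays left 2 of 7 genes lower. The median log2 difference was -0.80 over the 8 genes and -0.12 over the 5 others, against 0.06 over all 3867 genes.

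Klf3, a repressor that recruits CtBP, had a signal of 1667 in ES against 942 in EB, a log2 difference of -0.82 (bead-level SE 0.06). Klf7, known from neurons, had 1291 and 752, a difference of -0.78 (SE 0.08). Both were lower by more than their bead-level error but did not reach the 2-fold limit. Klf6, a widely expressed factor that responds to injury, went the other way, with 3630 in ES against 4999 in EB, a difference of 0.46 (SE 0.06).

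Sp1, a general activator at GC boxes, had signals of 435 and 400, a difference of -0.12 (SE 0.08). Sp6, a factor of tooth and limb epithelium, had signals of 256 and 317, a difference of 0.31 (SE 0.11), near the floor in both arrays. Klf8, Klf11, Klf12, Klf17, Sp2 and Sp3 lay under the floor in both arrays with all 10 of their probes (signals of 122 to 217), so no ratio is given for them. The other 12 family genes, Klf1, Klf9, Klf10, Klf13 to Klf16, Sp4, Sp5 and Sp7 to Sp9, are not analysed here.

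**Figure D4:**
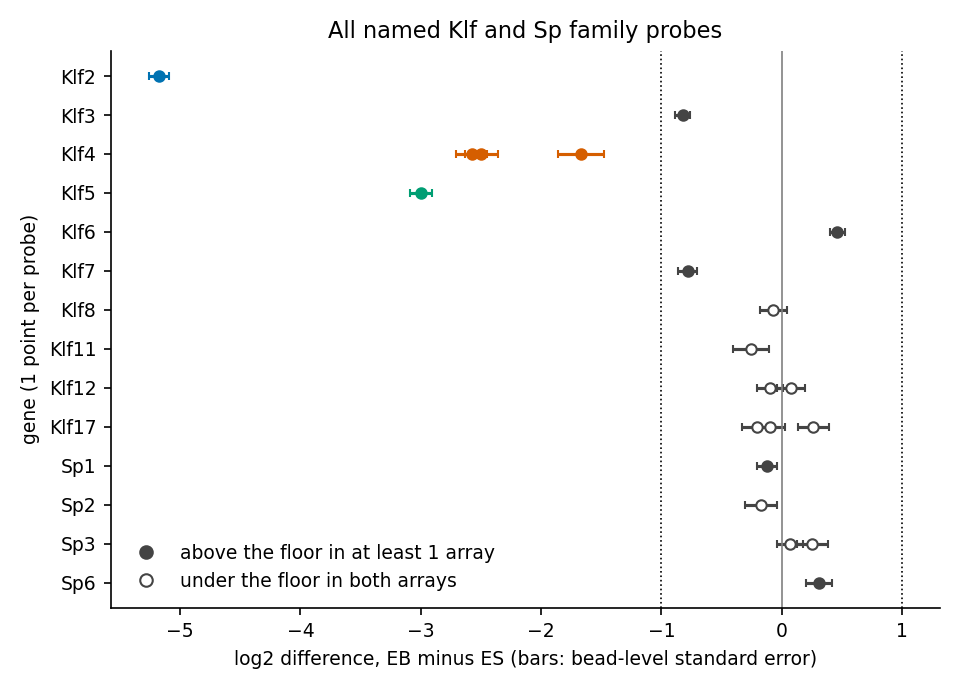
Log2 difference, EB minus ES (horizontal axis, bars are bead-level standard errors), for each of the 20 probes of 14 named Klf and Sp genes (vertical axis); open points were under the floor in both arrays and dotted lines mark 2-fold. The Klf2, Klf4 and Klf5 probes lie left of the 2-fold line and every other point lies between -0.82 and 0.46.

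The genes with the most similar pair of signals were found by the distance between pairs of log2 signals, over these 2 arrays. A small distance means a like brightness in both, and probe brightness also depends on the probe. Nearest to Klf2 were Dppa4, a nuclear protein of pluripotent cells (distance 0.68), Spp1 (0.85), Zfp42, the ES cell marker also called Rex1 (0.86), Lefty1, an antagonist of Nodal (1.0), and Cobl, an actin nucleator (1.36). Nearest to Klf5 were Cldn4 (0.08), Kat6b, a histone acetyltransferase (0.29), Tfap2c, an AP-2 factor of trophoblast and germ cells (0.41), Neat1, a long noncoding RNA of nuclear paraspeckles (0.74), and Lefty1 (0.85). The signals of Cldn4 were 3764 and 502, and its log2 difference was within the bead-level error of that of Klf5. A second probe of Tfap2c had signals of 372 and 236, a log2 difference of -0.66.

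Nearest to Klf4 were Dnajc6, the co-chaperone auxilin (distance 0.36), Ddc, the aromatic amino acid decarboxylase (0.38), Tns3, a tensin of focal adhesions (0.39), Krt42, a type I keratin (0.42), and Sfn, the epithelial 14-3-3 sigma protein (0.42). Their log2 differences ran from -2.72 for Krt42 to -2.03 for Tns3. The EB signals of Dnajc6 and Krt42 were under the floor, as that of Klf4 was.

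Genes around the 3 factors were followed in 7 lists, which held 49 different genes above the floor. Of all 3867 named genes above the floor 5.35% were lower by at least 2-fold and 3.72% higher, with a median of 0.06. Each list's count stands beside these shares. In the naive pluripotency network 7 of 11 genes above the floor were lower by at least 2-fold and 0 were higher, with a median of -2.0 (-3.38 in the series value table). Of these 11 genes 5 were above the floor in EB too, and a gene above it only in ES is lower in EB by construction. Detection in both arrays left 2 of 5. Klf2, Klf4 and Klf5 are not in that list. Nanog, a core pluripotency factor, had signals of 14530 and 2760, Zfp42 had 5248 in ES and Dppa3, also called Stella, had 1476 in ES, the last pair with EB signals under the floor. The other lower genes were Spp1, Dppa4, Dppa2 (at least 2.58-fold) and Sox2 (at least 2.14-fold). Zfp281, a zinc finger factor that partners with Nanog, had a log2 difference of -0.46, Fgf4, the autocrine growth factor of ES cells, -0.99 and Tdgf1, a Nodal co-receptor, -0.17. The second probe of Dppa2 brought the mean of its probes to -1.15. Pou5f1, Esrrb, Tfcp2l1 and Tbx3 are not analysed here.

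The LIF and JAK-STAT arm, which acts on Klf4 through Stat3, had 8 genes above the floor, with 1 lower, 0 higher and a median of -0.05. Of all named genes above the floor 5.35% were lower. The lower gene was Stat3, the transcription factor activated by LIF, with a signal of 1965 in ES against 749 in EB and thus 2.62-fold lower (log2 difference -1.39, SE 0.09), and the mean over its 2 probes was -1.26. Socs2, a feedback inhibitor of cytokine receptors, had a difference of 0.52, Ptpn11, the phosphatase Shp2, 0.51 and the kinase Jak2 -0.36. The LIF receptor gene Lifr lay under the floor in both arrays. Il6st, the shared gp130 subunit, had signals of 305 and 274, also close to the floor.

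The FGF and ERK arm had 6 genes above the floor, with none past 2-fold and a median of 0.04. That count changed with the scaling and background: 1 gene was lower with no normalization and with a common median, 1 was lower and 1 higher with normexp, and 2 were lower and 2 higher in the series value table (median 0.32). Fgf4, which is in this list too, had -0.99 with an EB signal under the floor. Mapk3, which encodes the kinase ERK1, had a log2 difference of 0.63. The receptors Fgfr1 and Fgfr2 gave 0.26 and 0.82, the second with an ES signal under the floor. Of 3 genes of the primed epiblast above the floor, Otx2, a homeobox factor of the primed state (4.59-fold), and Cdh2, N-cadherin (3.10-fold), were higher and Sox4 gave 0.37. Another probe of Cdh2, with an ES signal under the floor, gave 1.02 by measured signal. The mean over the 3 probes of Cdh2, 0.77, did not pass the limit and includes a probe under the floor in both arrays.

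Among the partners and ubiquitin ligases of KLF proteins 0 of 9 genes above the floor passed 2-fold, with a median of -0.06, and 1 was higher in the series value table. Sin3a, a corepressor scaffold, had signals of 2118 and 1491 (log2 difference -0.51), and Fbxw7, a ubiquitin ligase subunit that acts on KLF5 among others, 1041 and 851 (-0.29). Pias1, a SUMO ligase, gave -0.06. The arrays measured RNA, so the amount of KLF protein was not observed.

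Genes known as KLF targets in other tissues were followed too. Of 7 genes above the floor from the vessel wall and epithelial list 4 were lower and 0 higher, with a median of -1.29. Of all named genes above the floor 5.35% were lower and 3.72% higher. The 4 lower list genes were Cldn4 (7.50-fold), the keratin Krt19 (3.49-fold), Alpl, the alkaline phosphatase used to stain ES cells (2.56-fold), and Cdkn1a, the CDK inhibitor p21 (2.44-fold). Ccnd1, cyclin D1, gave 0.64, and the keratins Krt8 and Krt18 gave 0.05 and -0.38. The vessel wall gene Vcam1 lay under the floor in both arrays. Of 6 genes from the Klf5 list Pdgfa, a platelet-derived growth factor (2.13-fold), and Fgfbp1, an FGF-binding protein (at least 1.29-fold), were lower by at least 2-fold by measured signal, with a median of -0.39. Fgfbp1 had an EB signal under the floor, and the count fell to 1 with signals set to the floor and to 1 of 5 with detection in both arrays. Acta2, smooth muscle actin, had a difference of -0.79, Plk1, a mitotic kinase, 0.28, Birc5, the protein survivin, 0.25 and Ccnb1, cyclin B1, 0.01.

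**Figure D5:**
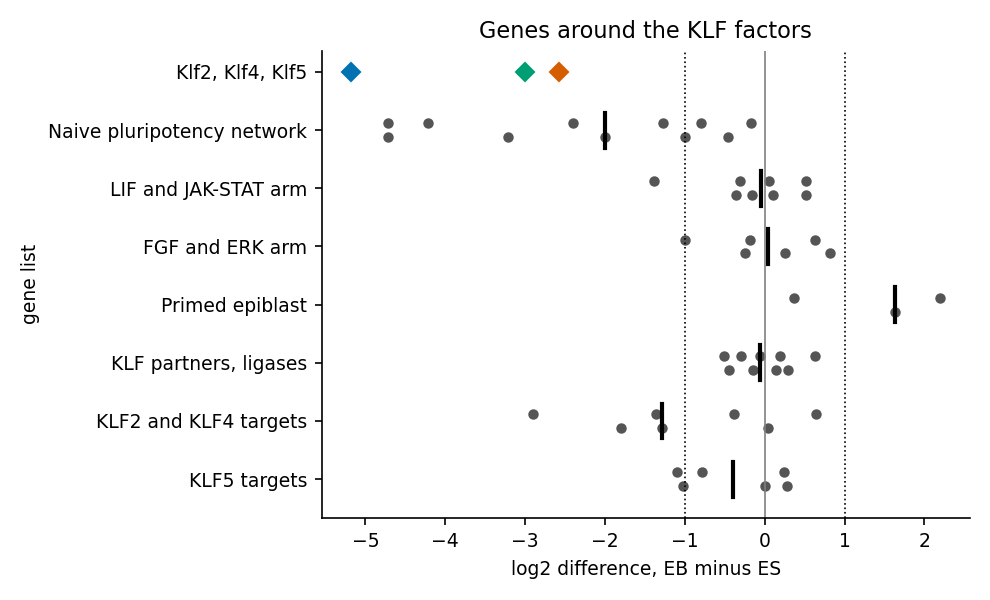
Log2 difference, EB minus ES (horizontal axis), of the 3 Klf genes (diamonds) and of genes above the floor in 7 lists (1 point per gene, vertical bar for the list median); dotted lines mark 2-fold. The naive network list has its median at -2.0 and all 11 points below 0. Only 5 of these genes were above the floor in EB, and a gene above it only in ES lies below 0 by construction. The lists of the LIF arm, the ERK arm and the KLF partners centre within 0.06 of 0 in these values. In the series value table the ERK arm centres at 0.32.

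Other cell types can also make these factors, and in these bulk samples fewer cells of a type and less RNA per cell cannot be told apart. The ES cell markers had a summed signal of 27137 in ES and 3532 in EB, the largest part of it Nanog. Of the 7 in the list 4 were named. All 4 were lower by at least 2-fold, against 5.35% of all named genes above the floor. Sox2 and Zfp42 were under the floor in EB and passed it only in ES. Of 6 named fibroblast markers, which feeder cells would bring, 1 was above the floor, Col1a1, 2.58-fold lower in EB, while Col1a2, Col3a1, Postn, Dcn and S100a4 were under it in both arrays. The list sum was 3426 in ES and 1756 in EB. Of 2 named endothelial markers Pecam1, which ES cells also make, was 2.53-fold lower and Emcn was under the floor in both arrays (sum 1046 and 547).

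In the other direction, the sum of 3 primitive streak and mesoderm markers, Eomes, Lhx1 and Fst, was 703 in ES and 4959 in EB. All 3 were higher by at least 2-fold by measured signal, against 3.72% of all named genes above the floor. Lhx1 was under the floor in ES and passed it only in EB, so it is higher by construction. In ES Eomes (259) and Fst (260) were near the floor. Of 4 primitive blood markers, all under the floor in ES, Lmo2 was at least 6.76-fold higher, Hba-x at least 3.26-fold and Nfe2 at least 1.82-fold, and Hbb-y was under the floor in both arrays (sum of signals 697, at background, and 2937). Of 2 endoderm markers Gata4 was at least 1.97-fold higher and Dab2 gave 0.46 (sum 695 and 1171). The trophoblast sum was 22708 and 23019, most of it Krt8. Eomes, Gata3 and Plac1 (at least 2.36-fold) were higher. Tfap2c was lower, with a log2 difference of -2.44 by its brightest probe and -0.66, short of 2-fold, by its second probe. Of 3 neural markers Nes had signals of 415 and 416, above the floor in both arrays, Tubb3 had 264 and 229, the second under the floor, and Pax6 was under the floor in both arrays (sum 815 and 775). The part of any of these cells in the Klf differences was not tested.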

How the data were processed

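Total RNA of 1 ES and 1 EB sample was hybridised to 1 bead array each. The deposited signal intensity of a probe is the mean over its beads, exported by the authors from BeadStudio 2.3.41 with no normalization, per the file headers. The detection score (0 to 1) was deposited by the authors for EB. BeadStudio 2, RMA and limma also stand in the submitters' processing notes, with no role; the build is not given in the sources used. The deposited bead spread shrank with bead number (slopes on log scales of -0.44 for ES and -0.47 for EB above a signal of 1000; -0.5 would be a standard error) and was taken as a standard error.

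Quantile normalization across the 2 arrays and log2 came next, with no background step (Python 3.11.15, numpy 2.4.6, pandas 2.3.3). The signal floor, 230.0 after normalization, is the lowest signal whose EB detection score exceeds 0.99, and it was applied to both arrays. A zero-padded number of at least 10000 in a probe identifier was taken for an NCBI Gene number and named through the RefSeq table of GRCm38.p6; 9796 of 11857 such probes matched. The probe with the highest mean log2 signal stands for a gene. The size limit is a 2-fold difference in a gene above the floor in ES, EB or both.

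With 1 sample per group no test was possible and no p-value is given. The text names every member probe, all named Klf and Sp genes, list genes past the size limit and up to 4 others per list with the highest mean signal, the 5 genes most similar to each member, and the neighbours of each member in the order of differences. Some genes that this rule names are counted in their lists and not reported singly here. Genes named as under the floor, and Il6st, were picked after their values were seen. Sp100 and Sp110, nuclear body proteins, were left out of the family. The members and lists were chosen with earlier results of these data known. Normalization and the 2-fold limit were tested on simulated data with changes in bright probes only. The signal floor was not tested there. Alternatives were no normalization, a common median, the deposited series value table (linear intensity, made in a way not stated), normexp background correction (limma 3.58.1, R 4.3.3, offset 50), signals set to the floor, other detection and size limits, and the mean over probes.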

Additional observations from a re-analysis of the deposited data

How the results depend on the processing

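No paired analysis was possible because there is a single sample on each side, so leaving one out was not possible either. Every member probe stayed lower in EB by at least 2-fold under each scaling, background and probe choice tried (27 alternatives, 0 reversed). With the series value table the log2 differences were -7.02 (Klf2), -4.67, -5.13 and -4.60 (Klf4 probes 1, 2 and 3) and -3.63 (Klf5). With normexp they were -5.57, -2.96, -2.95, -2.17 and -3.18. With signals set to the floor Klf4 probes 2 and 3 gave -2.29 and -1.16. Probe 3 in place of probe 1 gave -1.67. Dim EB signals limit the sizes: Klf2 was 1.09 times the floor and Klf4 under it.

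Of the family 5 genes were lower with a 1.5-fold limit, which adds Klf3 and Klf7, and 2 of 7 with detection in both arrays. Of the list genes 14 were lower and 2 higher; detection in both arrays left 8 lower, and the higher count was 5 in the series value table, 1 with the mean over probes and 6 with a 1.5-fold limit. The share of named genes lower and higher was 12.1% and 13.6% in the series value table, 12% and 12.4% with a 1.5-fold limit, and 2.55% and 1.78% with no detection filter. Of 126 alternative counts for single lists 111 were within 1.5 times of the main count, a 0 that stayed 0 included. Most main counts were 0 and the others ran from 1 to 7, so this share says little about stability. The cause of these shifts was not tested, beyond what the limits and filters set by construction.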

Other observations

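A further probe, scl16598.23.1_93-S, carries the Gene number of Klf2 without zero padding. It had a deposited signal of 206.8 in ES against 248.6 in EB, a log2 difference of 0.32 (bead-level SE 0.14), and was not counted as a Klf2 probe. Unpadded numbers matched a Gene number in 11.8% of 10525 probes and in 9.87% when shifted, while padded numbers matched in 82.6% and 20.4%.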
